A study of Mus musculus with 8 samples.

Results

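The peaks described here are the 88 sites of open chromatin, of 134407 in the table, whose centre lay within 100 bp of a transfer RNA (tRNA) gene of the RefSeq annotation of the mouse build mm10 (GRCm38.p6). They were found by position, 1 peak for each of 88 tRNA genes, out of 403 nuclear tRNA genes placed on the chromosomes. The peaks were then grouped by the amino acid and anticodon in the gene symbol (n-TKttt22 is a lysine tRNA gene with anticodon TTT) and by location. The chromosome 13 cluster (21 to 24 Mb) held 43 of the peaks, at 43 of its 104 tRNA genes. The chromosome 3 cluster (96 to 97 Mb) held 4 of them, at 4 of its 25 genes, and the remaining 41 stood at 41 of 274 tRNA genes elsewhere. The set and its grouping were proposed after these samples had been compared, so its counts of lower and higher peaks are descriptions of that comparison and support nothing beyond it.

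The cells were E14 mouse embryonic stem cells of WT genotype, an established line grown on gelatin in medium with serum and the cytokine LIF. The 4 paused samples had received the mTOR inhibitor INK128 at 200 nM for 24 hours, a treatment used to bring cultured stem cells into a state like the paused blastocyst, and the 4 control samples had not. Open chromatin was read in each by ATAC-seq, in which the transposase Tn5 inserts adapters into accessible DNA, from 50000 live cells. The labels do not say that samples of a group came from separate cultures, so the p-values measure the spread between these samples, which may be technical. All samples come from 1 cell line, and a lower value in every cell cannot be told apart from a loss in a share of the cells.

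tRNA genes are transcribed by RNA polymerase III. Their promoters lie inside the transcribed stretch: a pair of short elements, the A box and the B box, binds the factor TFIIIC, which places TFIIIB upstream of the start, and TFIIIB recruits the polymerase. A short run of T ends the transcript. The kinase mTOR promotes polymerase III transcription, in part by keeping the repressor Maf1 phosphorylated and inactive. In mammals many tRNA genes stand in clusters, of which the largest in mouse shares its chromosomal region with the genes of the replication-dependent histones.

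Sequences could be read for 3 of the 88 tRNA genes, which are shown because they let the layout of such a gene be seen. They were cut from RefSeq GRCm38.p6 promoter windows or a miRNA hairpin that happen to cover the gene, and are written 5′ to 3′ on the strand of the gene. The anticodon and the B box, searched as GTTCNANNC (N is any base), are in capitals.
n-TAagc16, alanine, chr13:21222586-21222657, plus strand: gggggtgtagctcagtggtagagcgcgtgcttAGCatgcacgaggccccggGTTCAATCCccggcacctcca
n-TItat14, isoleucine, chr13:21896938-21897031, minus strand: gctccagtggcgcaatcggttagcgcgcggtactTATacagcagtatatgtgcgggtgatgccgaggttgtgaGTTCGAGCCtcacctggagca
n-TTagt9, threonine, chr7:35234770-35234843, minus strand: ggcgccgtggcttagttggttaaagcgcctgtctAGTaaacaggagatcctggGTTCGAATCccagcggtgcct
All 3 held the anticodon that the symbol names and a B box downstream of it. On either strand, 3063 of 32851 RefSeq promoter windows of 300 bp (9.32%) held these letters as well, so a match alone marks no tRNA gene. The whole 201-bp peak at n-TAagc16, chr13:21222498-21222698, shows how little of a tRNA peak is tRNA gene. Here the gene of 72 bases and the run of T after it are in capitals, and the gene takes up 72 of the 201 bases.
n-TAagc16 peak: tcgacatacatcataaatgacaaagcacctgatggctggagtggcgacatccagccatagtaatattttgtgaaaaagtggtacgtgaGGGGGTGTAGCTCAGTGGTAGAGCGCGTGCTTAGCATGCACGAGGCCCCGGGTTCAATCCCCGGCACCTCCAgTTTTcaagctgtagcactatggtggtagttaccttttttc

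The value of each peak is the authors' normalized signal, the reads in its 201 bp divided by 1 factor per sample, and the whole reads behind it could be recovered. Samples held between 4434037 and 21161767 reads in peaks, control sample 1 holding the most, and between 6857 and 34965 reads at the tRNA peaks. A single tRNA peak held between 3 and 1021 reads in a sample. Of the stem cell markers, Sox2, Tfcp2l1 and Zfp42 had a peak within 1 kb of a gene end above the 96th percentile of all peaks, Nanog stood at the 87.8th, Esrrb at the 51.9th and Klf4 at the 13.0th, and Pou5f1 had none there. Of 8 markers of other cell types, Gata4 had none, Cdx2 and Elf5 stood at the 17.7th and 32.5th percentiles, and the other 5 (Gata6, Sox17, Thy1, Col1a1 and Col1a2) stood at percentiles from 74.2 to 91.2. Their part in the results below was not tested.

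Paused cells had less open chromatin at the tRNA genes of the clusters, and differences elsewhere were smaller. A peak was called lower or higher where limma-trend, fitted on log2(value + 1) over all 127402 peaks whose mean value reached 10, gave a Benjamini-Hochberg adjusted p under 0.05. Of the 88 tRNA peaks 87 were tested, and the other, at the glycine gene n-TGgcc11, had a mean value of 9.16. Of those tested, 34 were lower, while 2.91% of all peaks were, and 0 were higher, while 11.0% of all peaks were. Without adjustment 50 were lower and 1 was higher at p under 0.05, beside 9691 and 26826 of the 127402 peaks tested. The median log2 change, paused minus control, was -0.33 at tRNA peaks and 0.10 over all peaks.

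The 2 clusters differed from the other loci in these values. In the chromosome 13 cluster 27 of 43 peaks were lower, the median log2 change was -0.62, and all 43 changes, from -1.81 to -0.10, were below 0 under every scaling run. In the chromosome 3 cluster 3 of 4 were lower, with a median of -0.84. At the other loci 4 of 40 tested peaks were lower, with a median of -0.11 and a range from -0.92 to 0.23. There 25 changes were below 0 and 15 above it, but after TMM rescaling 35 were below 0, and after a loess correction 39. All 4 paused values lay below all 4 control values at 26 of the chromosome 13 peaks, 4 of the chromosome 3 peaks and 6 of the others, a total of 36, against 4.36% of all peaks. The reverse order held at 1 tRNA peak, n-TTagt9, against 13.0% of all peaks. The difference between the location groups was not tested, because the grouping was chosen with these changes known.

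The number of lower tRNA peaks moved with the scaling, which sets where 0 lies. It was 45 after TMM rescaling (4.15% of all peaks lower, 5.99% higher), 53 after the loess correction (3.50% and 5.10%), 49 with edgeR and TMM (5.54% and 7.13%), 36 with edgeR and the deposited factors (3.63% and 12.9%) and 36 with DESeq2 (1.49% and 3.06%). None of these 5 fits called a tRNA peak higher. In the authors' deposited table, at an FDR under 0.05, 34 of the 88 tRNA peaks were lower, beside 1.80% of all its peaks, and 0 were higher, beside 9.19%. All 34 were also called lower here. The added calls lay partly at the other loci, where 9 peaks were lower after TMM rescaling, 10 with edgeR and TMM, and 12 after the loess correction.

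**Figure D1:**
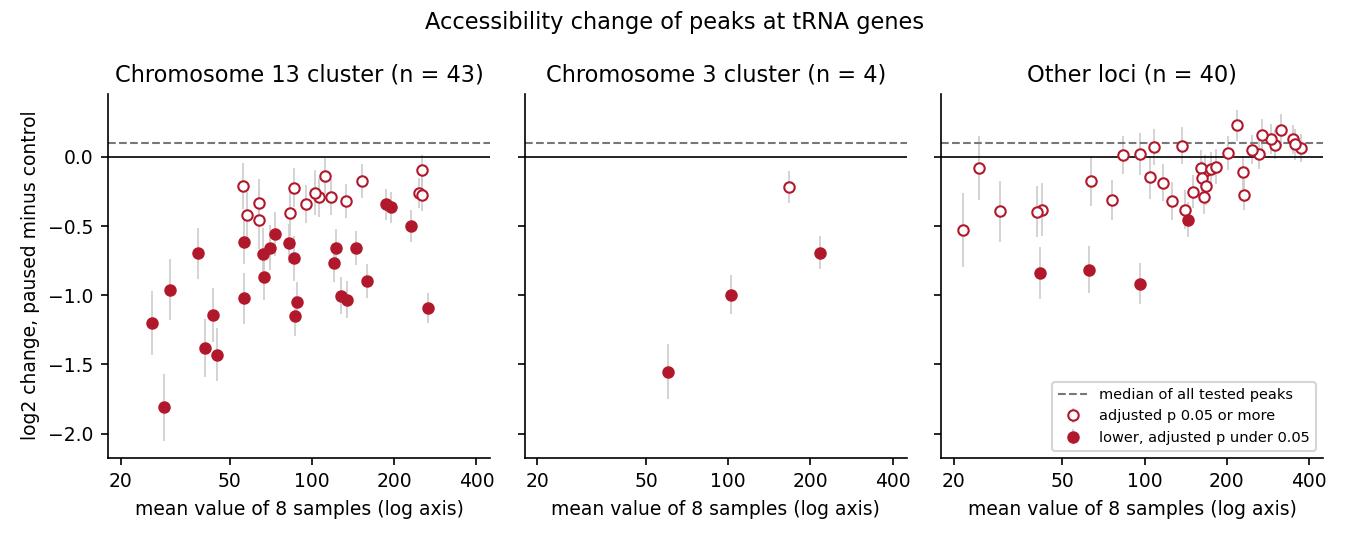
Each point is 1 of 87 tested tRNA peaks, with the mean deposited value of its 8 samples on a log axis and its log2 change (paused minus control, limma-trend, bars ± SE) on the vertical axis; filled points were called lower, and the dashed line is the median of all tested peaks, 0.10. All 47 peaks of the 2 clusters lie below 0, while the 40 peaks of the other loci lie on both sides of it, between -0.92 and 0.23.

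The largest fall in the chromosome 13 cluster was at the lysine gene n-TKttt22 (chr13:21971706-21971906). It was a weak peak, with 7 to 92 reads per sample, and was left untested where a mean of 50 reads was required. Its values were 31.8, 53.8, 45.7 and 50.0 in the control samples and 9.23, 15.8, 10.9 and 12.9 in the paused samples. The highest paused value was well below the lowest control value, and the means fell from 45.3 ± 9.58 to 12.2 ± 2.82 (SD, n = 4), a log2 change of -1.81 ± 0.24 (SE; adjusted p = 3.61e-06 by limma-trend). The alanine gene n-TAagc18 (chr13:21242570-21242770) read 64.7, 60.9, 61.0 and 76.4 in control and 20.8, 20.5, 21.7 and 34.0 in paused samples. Paused sample 4 stood above the other paused samples but well below every control (log2 change -1.43 ± 0.19 SE; adjusted p = 3.38e-06 by limma-trend).

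The other 2 of the 4 largest falls in that cluster were at a methionine and a leucine gene. They held 9 to 166 and 10 to 105 reads per sample, and neither was tested where a mean of 50 reads was required. At n-TMcat10 (chr13:21931034-21931234), whose anticodon CAT reads the methionine codon, the control values were 57.4, 54.9, 64.3 and 57.3 and the paused values 20.8, 33.1, 14.0 and 23.4. The paused samples spread more than the controls there and did not reach them (log2 change -1.38 ± 0.21 SE; adjusted p = 2e-05 by limma-trend). The leucine gene n-TLtaa2 (chr13:21847922-21848122) was a weak peak, with control values of 36.3, 35.8, 35.6 and 38.2 and paused values of 11.5, 15.8, 17.1 and 17.6. The 4 controls were almost equal and the paused mean was 42.5% of theirs (log2 change -1.20 ± 0.23 SE; adjusted p = 0.00045 by limma-trend). The strongest peak of the cluster that was not called was at the serine gene n-TSaga1 (chr13:21937098-21937298), with control values of 260.0, 258.0, 298.0 and 286.6 and paused values of 184.6, 216.1, 270.0 and 244.9. Those groups overlapped (log2 change -0.28 ± 0.12 SE; adjusted p = 0.098 by limma-trend), and the call was made after TMM rescaling, after the loess correction, by edgeR with TMM, with the replicate number as a block (adjusted p = 0.040) and without paused sample 3.

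All 4 peaks of the chromosome 3 cluster had every paused value below every control value. The glutamine gene n-TQctg4 (chr3:96398896-96399096) fell most, from 93.0, 68.1, 93.1 and 104.3 in control to 16.1, 37.9, 31.0 and 39.8 in paused samples (log2 change -1.55 ± 0.20 SE; adjusted p = 1.91e-06 by limma-trend). The histidine gene n-THgtg2 (chr3:96435846-96436046) fell from 130.7, 138.5, 157.5 and 119.0 to 60.0, 82.0, 57.4 and 73.8, which is 50.1% of its control mean (log2 change -0.995 ± 0.14 SE; adjusted p = 7.31e-06 by limma-trend). The asparagine gene n-TNgtt10 (chr3:96402144-96402344) was the strongest of the 4, at 233.7, 256.8, 287.9 and 291.0 in control and 150.0, 146.7, 200.2 and 166.4 in paused samples. Its fall was smaller on the log scale and clear of the spread (log2 change -0.69 ± 0.12 SE; adjusted p = 9.94e-05 by limma-trend). A second histidine gene, n-THgtg6 (chr3:96409916-96410116), was not called: its control values were 175.3, 174.4, 174.4 and 191.0, and its paused values 139.6, 154.6, 150.5 and 171.1 (log2 change -0.22 ± 0.12 SE; adjusted p = 0.21 by limma-trend). It was called lower after the loess correction (log2 change -0.42, adjusted p = 0.0091 by limma-trend). The 2 histidine genes share an anticodon and a cluster and differed in size of change, a difference that was not tested.

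Outside the clusters 4 peaks were called lower, each at a gene of another amino acid and on another chromosome. At the phenylalanine gene n-TFgaa6 (chr19:12002269-12002469), the only phenylalanine gene with a peak, values went from 115.5, 92.0, 143.9 and 154.3 in control to 58.8, 69.4, 69.8 and 63.3 in paused samples. The controls varied over a wide range and the paused samples lay close together below it (log2 change -0.92 ± 0.15 SE; adjusted p = 4.81e-05 by limma-trend). The lysine gene n-TKctt24 (chr7:28793935-28794135) went from 49.4, 57.3, 52.5 and 52.9 to 27.7, 37.9, 21.7 and 31.6 (log2 change -0.84 ± 0.19 SE; adjusted p = 0.0023 by limma-trend). The glutamate gene n-TEttc8 (chr9:104408653-104408853) went from 89.2, 80.0, 64.3 and 83.8 to 31.1, 42.6, 49.6 and 58.6 (log2 change -0.81 ± 0.17 SE; adjusted p = 0.0012 by limma-trend). In both, every paused value lay below every control value. The proline gene n-TPagg5 (chr3:51359247-51359447), far from the chromosome 3 cluster, went from 154.2, 150.5, 174.4 and 188.1 to 99.2, 119.9, 142.8 and 126.5 (log2 change -0.45 ± 0.13 SE; adjusted p = 0.014 by limma-trend). Its call was lost without control sample 4 (log2 change -0.39) and without paused sample 1 (-0.36).

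The 5 strongest tRNA peaks of all were at other loci, and none of them was called. The proline gene n-TPcgg3 (chr11:69040214-69040414), the strongest, read 336.0, 332.0, 404.7 and 387.9 in control and 364.5, 370.7, 394.1 and 392.5 in paused samples (log2 change 0.06 ± 0.10 SE; adjusted p = 0.72 by limma-trend). The tyrosine gene n-TYgta10 (chr14:51089413-51089613) read 311.5, 310.5, 392.8 and 357.1 in control and 305.7, 339.1, 415.8 and 403.0 in paused samples (log2 change 0.09 ± 0.11 SE). The groups overlapped in both. The leucine gene n-TLcaa3 (chr11:58302505-58302705) had a log2 change of 0.13 (SE 0.11), the glutamate gene n-TEttc4 (chr14:79481539-79481739) of 0.19 (SE 0.12) and the isoleucine gene n-TIaat6 (chr12:110845178-110845378) of 0.09 (SE 0.10), with overlapping groups in each. All 5 changes were below 0 after the loess correction, and those of n-TPcgg3, n-TYgta10 and n-TIaat6 also after TMM rescaling. Of the 3 genes whose sequence is printed above, n-TAagc16 went from 148 ± 14.0 to 118 ± 7.90 (SD, n = 4), a log2 change of -0.32 (adjusted p = 0.074 by limma-trend), n-TItat14 from 260 ± 21.8 to 244 ± 33.0 (-0.10) and n-TTagt9 from 200.2 ± 13.0 to 235 ± 23.3 (0.23, limma-trend adjusted p = 0.17).

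**Figure D2:**
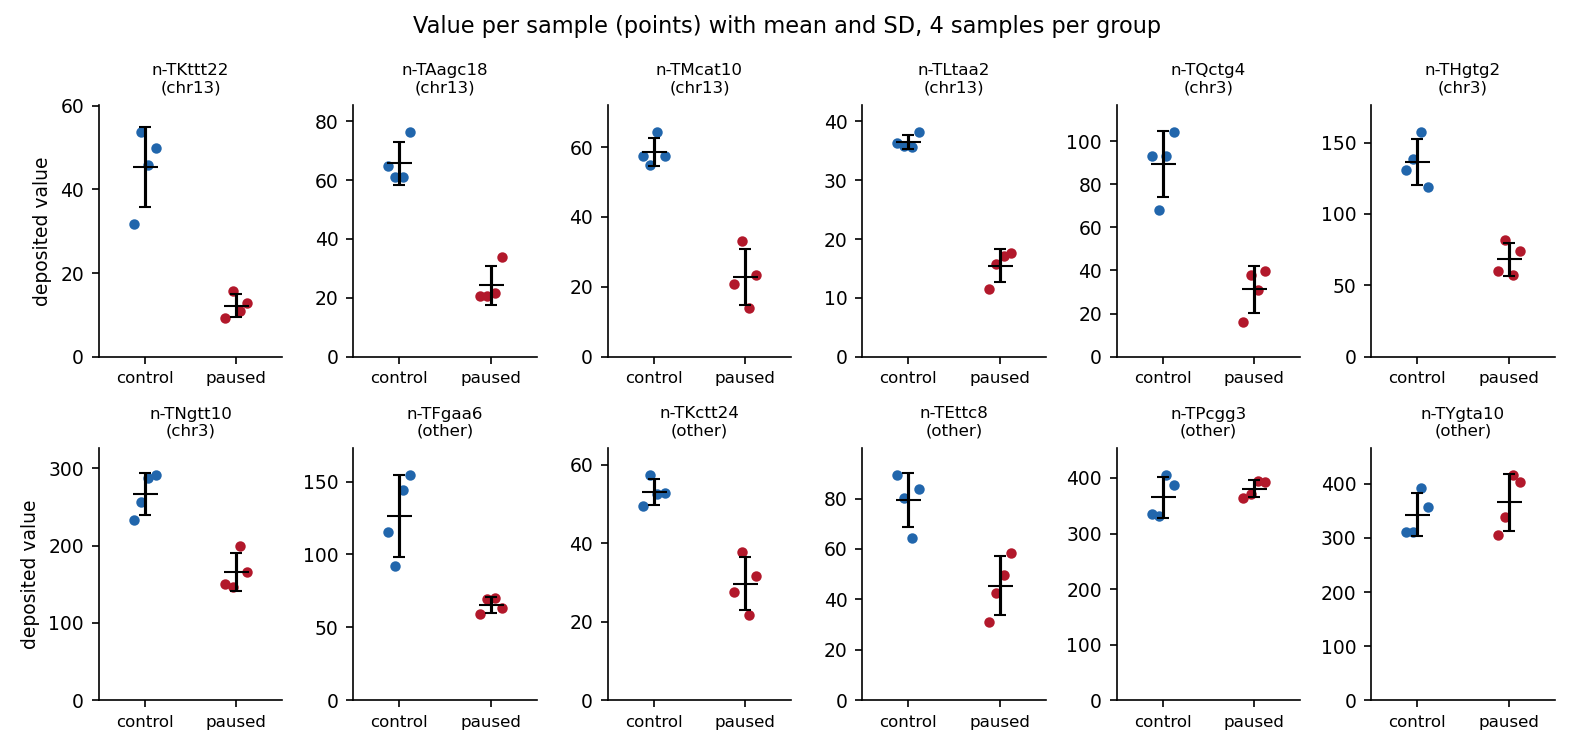
Deposited value of 12 named tRNA peaks in each of the 4 control (blue) and 4 paused (red) samples, with the mean and SD in black and each vertical axis starting at 0. In the first 10 panels every paused point lies below every control point; in the last 2, n-TPcgg3 and n-TYgta10, the groups overlap.

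Sorted by amino acid, the lower peaks were spread over most amino acids, several of them with 1 lower peak each. Peaks stood at genes of 18 of the 20 amino acids and of 39 anticodons; 0 of 57 cysteine genes and 0 of 8 tryptophan genes had one, and the annotation names no selenocysteine tRNA gene by symbol. At least 1 peak was lower for 17 of the 18 amino acids, glycine, with 2 tested peaks, being the exception. Glutamine had the largest share among amino acids with 5 or more tested peaks, 4 of 5 lower with a median log2 change of -0.66. Methionine had the lowest median of the amino acids with more than 1 tested peak, -1.05, with 2 of 3 lower. Alanine had 5 of 11 lower (median -0.40), leucine 3 of 5 (-0.34), serine 3 of 9 (-0.26), arginine 2 of 9 (-0.27) and isoleucine 2 of 8 (-0.15). Glutamate, with all its 5 peaks outside the clusters, was the 1 amino acid with a median above 0, at 0.02 (-0.17 after the loess correction), and had 1 lower peak. All 14 amino acids with a peak in the clusters had a lower peak there.

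Within an anticodon, the change went with the location. Peaks of 10 anticodons stood both in a cluster and elsewhere, 19 in the clusters and 17 at other loci. In 10 of 10, every cluster peak had a lower log2 change than every peak elsewhere, and this also held under every scaling and count model run. Leaving out control sample 2, control sample 4 or paused sample 4 left 9 of 10 without overlap, and all 10 cluster medians were still the lower. The isoleucine anticodon AAT had 4 peaks on chromosome 13 with a median of -0.59, 2 of them lower, and 3 elsewhere with a median of 0.09. The tyrosine anticodon GTA had 3 on chromosome 13 with a median of -0.96, 2 of them lower, and 2 elsewhere with a median of 0.12. The aspartate anticodon GTC had 1 on chromosome 13, at -0.73 and lower, and 3 elsewhere with a median of -0.08. The smallest gap of medians was at the glutamine anticodon TTG, -0.74 in the clusters against -0.53 elsewhere. Strength differed by location as well. Every cluster peak was weaker than every peak elsewhere for arginine CCG, isoleucine AAT, leucine CAA, serine GCT, threonine AGT and tyrosine GTA. Cluster peaks were the stronger for asparagine GTT and glutamine TTG, and strengths were mixed for alanine TGC and aspartate GTC. The part of strength in this comparison was not tested.

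Of the anticodons with at least 4 tested peaks, 2 were present in 1 kind of location. All 7 peaks of the alanine anticodon AGC were in the chromosome 13 cluster, 4 of them lower, with changes from -1.43 to -0.17 and a median of -0.50. All 4 peaks of the glutamate anticodon TTC were at other loci, 1 of them lower, with changes from -0.81 to 0.19 and a median of 0.04. Genes of an anticodon can be near-identical copies, and how reads that match several copies were treated is not given in the sources used here. A part of the reads of a tRNA peak may therefore be shared between copies.

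**Figure D3:**
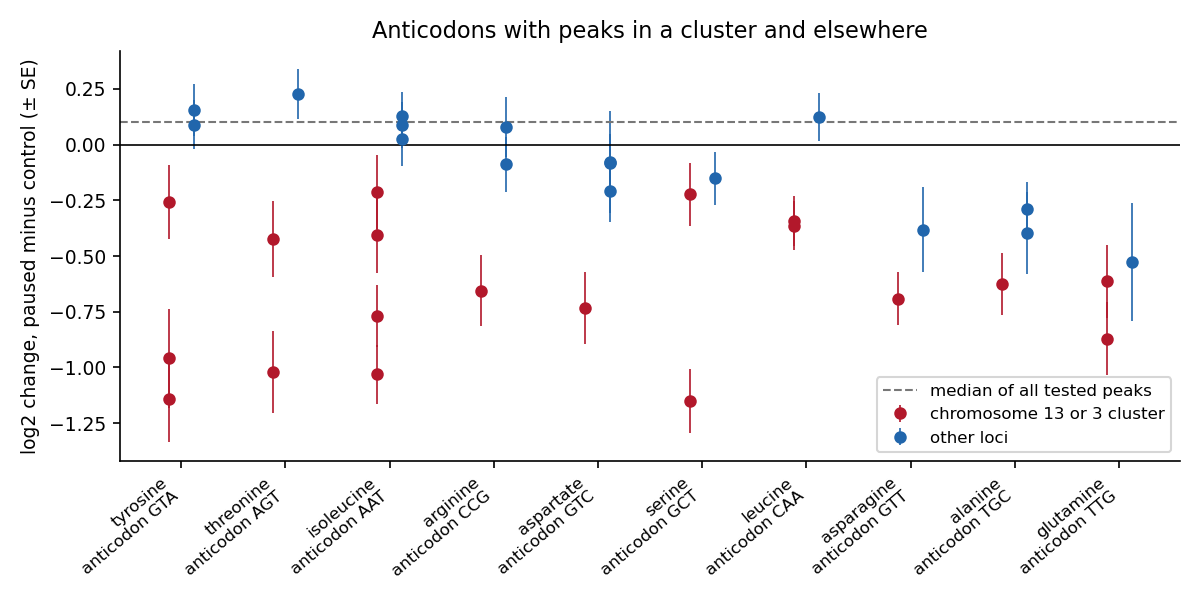
Log2 change (paused minus control, limma-trend, bars ± SE) of each tested peak for the 10 anticodons with peaks in both kinds of location, clusters in red and other loci in blue, ordered by the gap between the medians. In each anticodon every red point lies below every blue point.

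The chromosome 13 cluster consists of 3 stretches of tRNA genes parted by more than 200 kb, and the lower peaks were spread over all of them. In the first stretch, with 25 genes, 8 of 12 peaks were lower (median -0.56), in the second, with 34 genes, 11 of 17 (-0.66), and in the third, with 45 genes, 8 of 14 (-0.58). Weak and strong peaks lay next to each other in each, and no stretch held a tRNA peak with a change above 0.

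Some other peaks between the tRNA genes were lower too, mostly where they lay near one, in distance bands chosen after these values were seen. Of 23 such peaks centred 101 to 1000 bp from a tRNA gene in the 3 stretches, 9 were lower and 20 had a change below 0, with a median of -0.37. Inside that band the counts did not follow distance evenly. Over both clusters, 7 of 9 were lower at 101 to 200 bp and 1 of 11 at 201 to 500 bp (median -0.18). At 501 to 1000 bp, 4 of 9 were lower. Of 33 tested at 1001 to 5000 bp, 7 were lower and 2 higher (median -0.26). Of 48 tested beyond that distance, 2 were lower and 7 higher, with a median of 0.06 (-0.04 after TMM rescaling and -0.07 after the loess correction), while 2.91% of all peaks were lower and 11.0% higher. The 7 higher became 2 after the loess correction and 2 with DESeq2, and 11 with the replicate block. Over all peaks, 5.10%, 3.06% and 17371 of 127402 were higher in these 3 fits. The 2 lower became 0 with DESeq2 and without control sample 1, control sample 2 or paused sample 4, 0 of the 22 peaks left with a mean of 50 reads, and 1 without each of the other samples but paused sample 3. Where only peaks averaging 50 reads or more were kept, 7 of 14 were lower in the nearest band (median -0.28), and 1 of 10 in the second (median 0.04). The 9 lower peaks of the nearest band were 5 without control sample 4, and the 7 of the second were 4 without control sample 2 or paused sample 1. The stretches differed: 11 of 35 such peaks were lower in the third (median -0.34), 6 of 37 in the second (-0.05) and 1 of 32 in the first (0.04). In the chromosome 3 cluster 3 of 15 were lower, with a median of -0.40. In the rest of the chromosome 13 region, outside the stretches, 3 of 88 were lower and 14 higher, with a median of 0.13. The histone-end peaks described next are part of these counts. Of them, 18 lay outside the stretches and 7 inside, farther than 5000 bp from a tRNA gene.

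Most peaks at the histone genes that share the chromosome 13 region were not lower. Of 25 peaks within 1 kb of an end of a replication-dependent histone gene there, 1 was lower, at H2bc8 (log2 change -0.70), and 6 were higher, with the largest rises at H4c11 (0.52) and H4c3 (0.50). These are 4.0% lower and 24.0% higher, beside 2.91% and 11.0% of all peaks. The other 18 were not called. The median was 0.23, and it was 0.02 after the loess correction. The 6 higher peaks became 2 after TMM rescaling, 1 with DESeq2, 3 without control sample 1 or paused sample 3, and 2 without paused sample 4, and no histone peak was higher after the loess correction. In other fits the count rose. It was 10 with the replicate block, 9 without control sample 3, 8 with edgeR and the deposited factors, and 7 without paused sample 1. Over all peaks 17371 of 127402, 10825 of 126723, 12.9% and 12682 of 127075 were higher in these fits, in that order. Where a mean of 50 reads was required it was 7 of 23, beside 9696 of 44882 peaks.

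**Figure D4:**
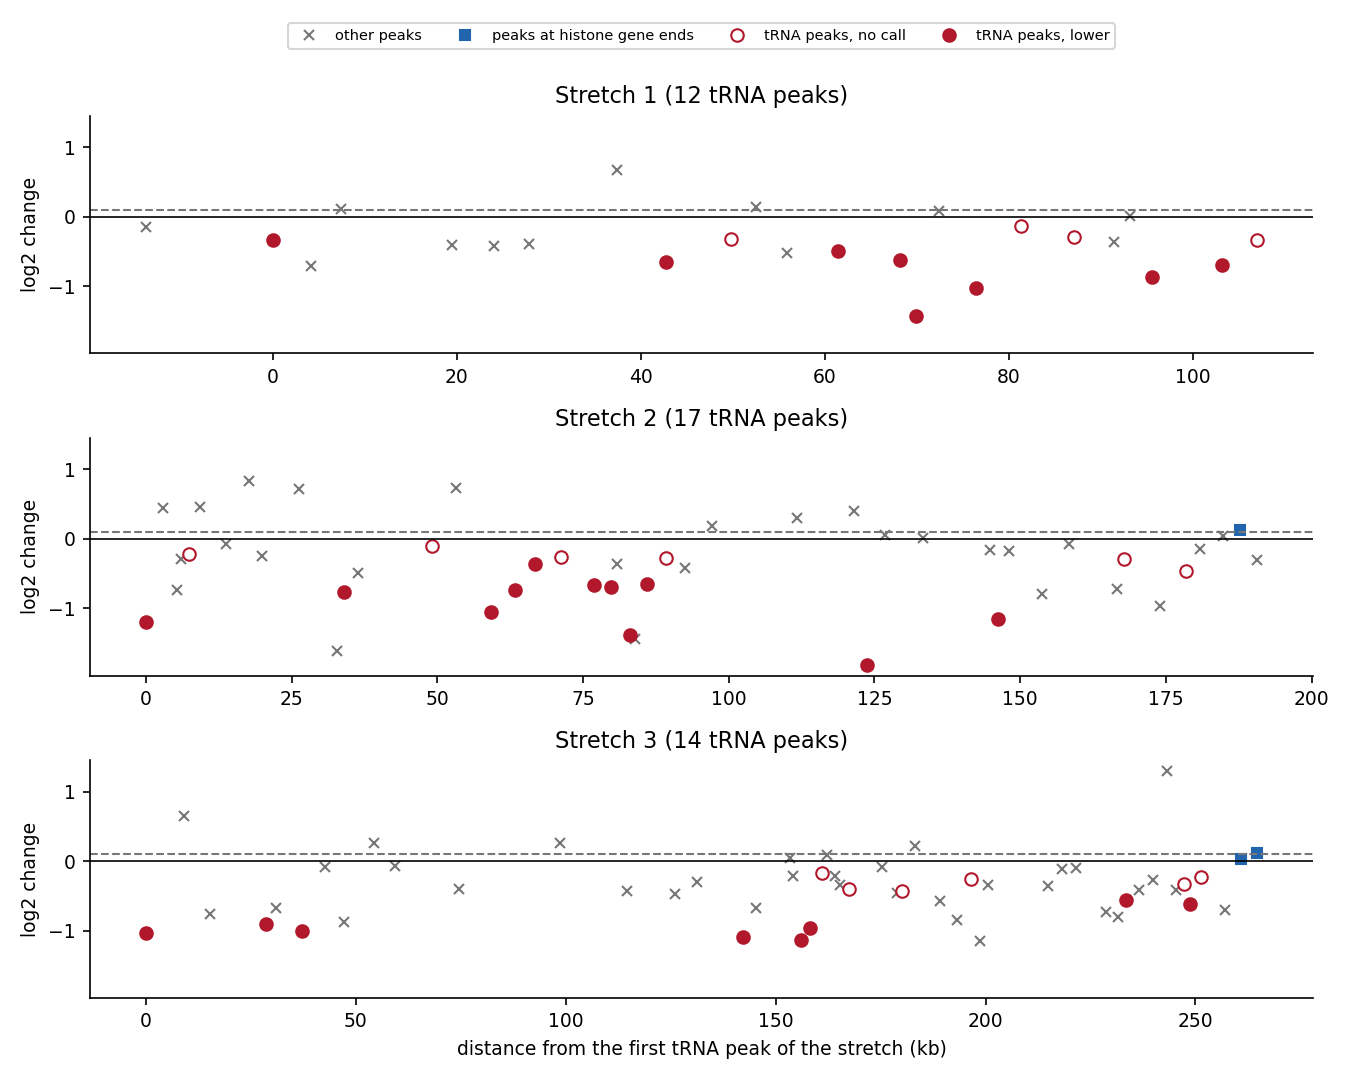
Log2 change (paused minus control, limma-trend) of peaks in 3 parts of the chromosome 13 cluster. Each part runs from shortly before the first to shortly after the last tRNA peak of a stretch. The horizontal axis is the distance in kb from that first peak. Red circles are tRNA peaks (filled where called lower), blue squares are peaks at histone gene ends and grey crosses are other peaks. The dashed line is the median of all tested peaks. Ends of stretches without tRNA peaks, and most histone-end peaks, are not drawn. All 43 red points lie below 0, as do 28 of the 35 other tested peaks between the tRNA genes of the third stretch.

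In the clusters, lower peaks were found at every distance from the gene within the limit: 15 of 20 peaks centred inside the gene were lower (median -0.70), 7 of 15 at 1 to 50 bp from it (-0.40) and 8 of 12 at 51 to 100 bp (-0.43). The members farthest from their gene, at 95 bp, were n-TQttg3 (chr13:21268274-21268474), a glutamine gene with a log2 change of -0.87, and n-TNgtt9 (chr2:18587112-18587312), an asparagine gene with -0.38. The nearest peaks outside the limit, at 105 bp, were those of the aspartate gene n-TDgtc12 on chromosome 13, with a log2 change of -0.41, and of the cysteine gene n-TCgca57 on chromosome 6, with -0.10. Between 101 and 200 bp, 7 of 9 further peaks in the clusters were lower, the lowest on chromosome 3 (chr3:96479508-96479708), 146 bp from the glutamine gene n-TQctg3, where values went from 79.6 ± 19.8 to 19.97 ± 3.57 (SD, n = 4), a log2 change of -1.92. At the other loci 16 of 21 peaks at that distance had a change above 0, as had 78038 of the 127402 peaks tested. Their median was 0.14, and it was -0.06 after the loess correction. The peak at the valine gene n-TVaac1 was higher (0.48), 1 of 21 beside 11.0% of all peaks. The peaks near n-TQctg3 and n-TVaac1 were singled out after their values were seen.

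Strong tRNA peaks had smaller log2 falls than weak ones, and the log2 change rose with strength over all peaks too, from a median of -0.20 in the weakest 10% to 0.20 in the strongest (-0.02 and -0.0031 after the loess correction). Across the 43 peaks of chromosome 13, the mean value and the log2 change had a Spearman correlation of 0.42, and across the 40 at other loci of 0.70. These are descriptions over peaks that share libraries, and the mean contains the paused values. In the strongest 10% of all tested peaks, 6 of 11 cluster peaks were lower and 0 of 21 at other loci, beside 0.181% of all peaks. Median values there were 217 in the clusters and 230 at other loci. At unadjusted p under 0.05, 3 of those 21 were lower, beside 57 of the 12740 peaks in that 10%. In the strongest 30%, 21 of 36 cluster peaks, 3 of 34 at other loci and 1.08% of all peaks were lower. The cluster peaks were the weaker there, with a median value of 115 against 166 at other loci. The part of strength in the difference by location was not tested. Among the other loci, 3 of 22 peaks with another tRNA gene within 20 kb were lower (median -0.20) and 1 of 18 without one (0.02).

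Measured within each library, where the scaling factor cancels, the clusters held a smaller share of the tRNA signal in paused samples. The chromosome 13 peaks made up 42.9, 43.5, 42.0 and 43.5% of the signal at tRNA peaks in the control samples and 36.3, 36.7, 34.5 and 35.1% in the paused samples. The chromosome 3 peaks made up 5.23, 5.14, 5.39 and 5.11% in control and 3.73, 3.89, 4.11 and 4.08% in paused samples. In neither do the groups overlap, and the spread within a group was small beside the gap. The ratio of tRNA signal to histone-end signal on chromosome 13 was 1.03, 0.956, 0.822 and 0.934 in control and 0.587, 0.603, 0.467 and 0.527 in paused samples. Every paused library was again below every control. Shares and ratios keep the change with strength seen over all peaks. The median value was 86.6 at the chromosome 13 tRNA peaks, 156 at the other loci and 277 at the histone ends. The part of strength in these measures was not tested.

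Summed over peaks, the tRNA signal fell from 12882 ± 776 to 10586 ± 542 (SD, n = 4), a change of -17.8%, with no overlap between groups. The sum over the chromosome 13 peaks changed by -31.9% and that over the chromosome 3 peaks by -37.6%, both without overlap. The sum over other loci was 6673 ± 408 in control and 6396 ± 364 in paused samples, a change of -4.15% with overlapping groups. After TMM rescaling, an alternative added after the data were seen, it changed by -10.8% and the groups did not overlap. Reads at tRNA peaks were 172 ± 7.47 of every 100000 reads in peaks in control and 127 ± 4.84 in paused samples.

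**Figure D5:**
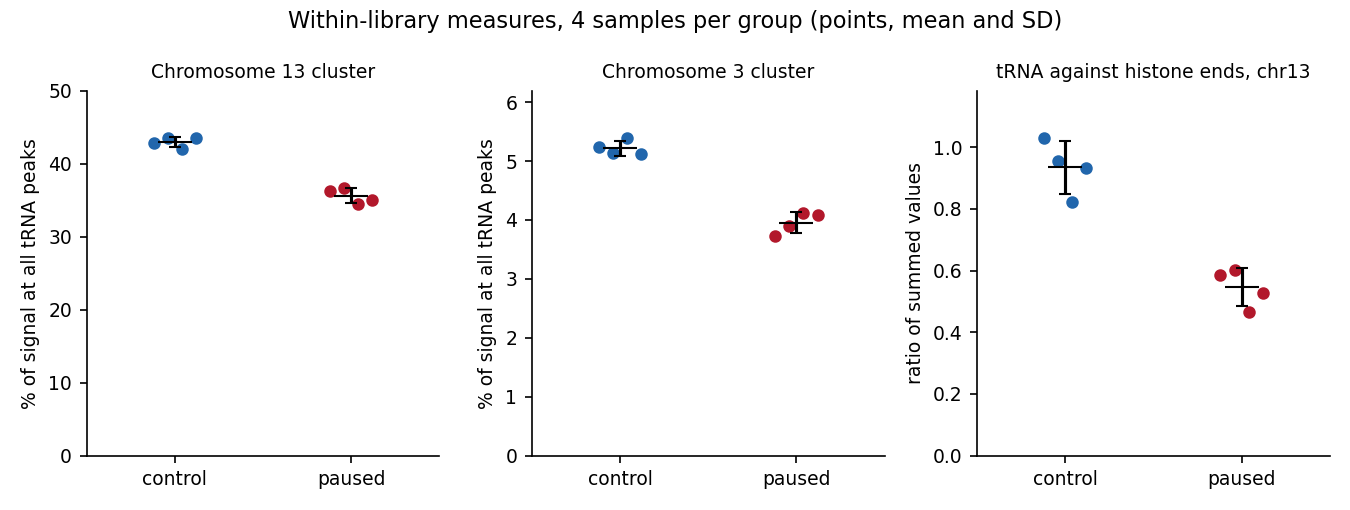
Share of the tRNA signal held by the chromosome 13 and the chromosome 3 cluster (in %), and ratio of tRNA to histone-end signal on chromosome 13, in each control (blue) and paused (red) sample, with mean and SD in black and axes starting at 0. In all 3 panels every paused sample lies below every control sample, as in the shares of 42.0 to 43.5% against 34.5 to 36.7% in the first.

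Other genes transcribed by polymerase III were not called. Peaks within 100 bp of such a gene stood at 7 of 79 genes: Rn7s1 and Rn7s2, the RNA of the signal recognition particle, Rpph1 and Rmrp, the RNAs of RNase P and RNase MRP, the vault RNA gene Vaultrc5, the Y RNA gene Rny3 and the 5S rRNA gene n-R5s151. With limma-trend 0 of the 7 were lower or higher (1, Rny3, was lower at unadjusted p under 0.05), and edgeR and DESeq2 called none. Over all peaks 2.91% were lower and 11.0% higher with limma-trend, so 0 calls among 7 peaks is near those shares. Their median log2 change was 0.14, and it was -0.07 after the loess correction. Rny3 was the lowest, from 38.3 ± 6.64 to 28.8 ± 10.7 (SD, n = 4), a log2 change of -0.46 ± 0.23 (SE; adjusted p = 0.17 by limma-trend). The next were near 0 or above it, from Rmrp at 0.07 to n-R5s151 at 0.21.

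Peaks at the genes of the polymerase III machinery were not called lower in the same fit. A list of 31 genes held the polymerase subunits, TFIIIA, TFIIIB, TFIIIC, SNAPc, the chaperone Ssb and Maf1, and 30 of them had a peak within 1 kb of a gene end, 41 peaks in all, of which 40 were tested. With limma-trend 5 were higher, which is 12.5% beside 11.0% of all peaks, and 0 were lower, beside 2.91% (1 was lower at unadjusted p under 0.05). DESeq2 called 0 in either direction. The share of higher peaks in the list was near that of all peaks, so the members are named as a description only. After TMM rescaling 2 were higher, after the loess correction 1 was higher and 1 lower, and without control sample 1 or paused sample 3, 3 were higher. With the replicate block 9 were higher, beside 17371 of all 127402 peaks. With edgeR and the deposited factors 6 were higher, beside 12.9%. Where a mean of 50 reads was required, 7 of 33 were higher, beside 9696 of 44882 peaks. Among the 5 higher with limma-trend on the deposited values were the TATA-binding protein gene Tbp (log2 change 0.76) and the polymerase subunit gene Polr3d (0.35). The others were the TFIIIC subunit genes Gtf3c4 (0.44), Gtf3c2 (0.38) and Gtf3c5 (0.31). The peak at Maf1 had a log2 change of 0.22 (SE 0.10, limma-trend adjusted p = 0.16). The median over the list was 0.17, beside 0.10 over all peaks, and it was -0.02 after the loess correction.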

How the data were processed

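The submitters' processing notes name FastQC, Trim Galore, Bowtie2 2.4.1, MACS3 3.0.3, DiffBind 3.16.0 and build mm10, without settings. The deposited value is a normalized signal (coverage of a 201-bp peak): whole reads divided by 1 factor per sample, and within a tolerance of 0.006 all values, 100% in each sample, gave whole reads. The authors' deposited table also gives log2 fold changes, p-values and FDR per peak; at FDR under 0.05 it has 34 of the 88 tRNA peaks lower (1.80% of all peaks) and 0 higher, and all 34 were also called here. Here limma-trend (limma 3.58.1, R 4.3.3) was fitted on log2(value + 1) over all peaks with a mean of at least 10, without a block. Fold changes on that scale understate those of weak peaks. Counts of recovered reads, made from the deposited values, were tested with edgeR 4.0.16 (quasi-likelihood) and DESeq2 1.42.0 as alternatives. Others were a pseudocount of 0.1, no filter, a mean of at least 50 reads, TMM rescaling, a loess correction on strength (span 0.3), a replicate block, each sample left out, and peaks centred in the gene. The fit was tested on simulated data. Of 194 tested peaks that were changed there, limma-trend called 132 in the right direction, and it called 2 unchanged peaks. With none changed it called 0. The simulation had a single setting of spread and no change with strength, unlike these data. A peak without a call may still have changed. Peaks were named by rule: the 4 largest called falls and rises without overlap per location, the 5 strongest, the strongest not called per location, and those next to the 100 bp limit; anticodons with at least 4 tested peaks were described singly. The members and lists were chosen with earlier results of these data known. Gene positions are from RefSeq GRCm38.p6.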

Additional observations from a re-analysis of the deposited data

Results flagged for a closer look

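In 2 of 58 groups of 4 values (control or paused, over the named tRNA peaks and the sums), 1 sample stood far from the other 3, by a gap that passed Dixon's 95% limit for groups of 4. Chance alone gives about 1 in 20 such groups. At n-TAagc18, paused sample 4 had a value of 33.98, above the other 3 by a gap of 0.909 of the range. At n-THgtg6, control sample 4 had a value of 191.03, above the other 3 by a gap of 0.946 of the range.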

How the results depend on the processing

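Of the alternative values of counts, medians and sums, 165 stayed within 1.5 times the count or 1 SD of the value reported, and 19 moved further. The 34 lower tRNA peaks became 53 after the loess correction (median log2 change -0.50; chromosome 13 -0.80, chromosome 3 -1.04, other loci -0.31 with 12 lower). With peaks centred inside the gene, where fewer were tested, 16 of 30 were lower (median -0.59): 14 on chromosome 13, 1 on chromosome 3 (its only one, -0.69) and 1 elsewhere. The other loci had medians of -0.20 with DESeq2, -0.20 with edgeR and TMM (10 lower) and -0.21 after TMM rescaling (9 lower); summed signal after TMM changed by -23.5% in all and -10.8% at other loci. Calls of all tRNA peaks were 45 after TMM rescaling, 49 with edgeR and TMM, and 36 with DESeq2. The 34 peaks were among those called in each of these; 22 were lower in every fit run. Of the other 12, 7 were missing only where the minimum of 50 reads left them untested, among them n-TKttt22, n-TMcat10, n-TLtaa2 and n-TKctt24. The remaining 5 lost the call when a sample was left out. Leaving out each sample gave 31 to 36 lower peaks (chromosome 13 25 to 29, other loci 3 to 6), with medians of -0.35 to -0.28, -0.68 to -0.56, -0.88 to -0.79 (chromosome 3) and -0.15 to -0.08. Over all peaks these fits called 2301 to 3860 lower, of 126723 to 127075 tested. Peaks above 0 reversed: n-TPcgg3 (-0.036 with DESeq2, -0.036 with edgeR and TMM, -0.038 after TMM rescaling, -0.15 after loess), n-TIaat6 (-0.021, -0.021, -0.014 and -0.12), n-TYgta10 (-0.0060, -0.0029, -0.013 and -0.12), n-TLcaa3 (-0.083 after loess) and n-TEttc4 (-0.017 after loess). The cause was not tested. With the replicate number as a block 39 tRNA peaks were lower, 6 of them at other loci. Calls rose over all peaks too, to 4623 lower and 17371 higher of 127402, from 3702 and 13958 without the block. The deviations of same-numbered samples had correlations of 0.08, 0.04, 0.13 and 0.04. Control sample 2 correlated best with paused sample 1 (0.07), not with its own number. Control sample 3 had the fewest reads, 4434037, with a median of 18 per peak, and the effect of depth on weak peaks was not tested.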
